A study of Homo sapiens with 6 samples.

Results

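SND1 and 9 genes that lie close to it on chromosome 7 were examined: GCC1, ARF5, FSCN3 and PAX4 on one side, LRRC4 inside the SND1 gene, and LEP, RBM28, IMPDH1 and HILPDA on the other side. The rows were those whose platform symbol field holds one of the 10 names. Each name had 1 row, so 10 of 22466 named genes are described. The knockdown cells were labelled HepG2, an established liver tumour line. They were made into a stable line with pLKO-shSND1-#1, a lentiviral vector carrying 1 short hairpin RNA (shRNA) against SND1. They were set against a stable HepG2 line with the pLKO vector alone. Both lines had received 5-fluorouracil (5-Fu) at 6 µg/mL, and total RNA was taken after 48 h. There were 3 arrays of shSND1 cells and 3 of vector cells. Each group is 1 stable line, so SND1 loss, other targets of this hairpin, carriage of any hairpin and differences between the lines cannot be told apart. The labels do not say that the arrays of a group came from separate cultures, so p-values reflect the spread among these arrays, perhaps only technical spread.

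SND1 (staphylococcal nuclease and Tudor domain containing 1, also called Tudor-SN or p100) is a ubiquitous RNA-binding protein. Its repeated nuclease-like domains and a Tudor domain, which binds methylated arginine, link it to transcription, splicing, stress granules and the RNA-induced silencing complex. An shRNA is processed into a small RNA that guides cleavage of a matching transcript. It acts through matching sequence, so a place beside the target on the chromosome does not by itself make a gene a target.

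In the RefSeq gene order (GRCh38.p14), 2 measured genes fall within the span of SND1. LRRC4 is read from the opposite strand, and MIR593, a microRNA gene, from the same strand. MIR129-1 is the next measured gene beyond SND1. The mature microRNAs that the RefSeq table lists under MIR593 and MIR129-1 are shown because these genes share the neighbourhood of the knocked-down transcript. RefSeq places hsa-miR-593-5p at chr7:128081876-128081900, hsa-miR-593-3p at chr7:128081939-128081957 and hsa-miR-129-1-3p at chr7:128207920-128207941, all on the plus strand. Capitals mark the seed (bases 2 to 8), and the 3 seeds differ.
hsa-miR-593-5p: aGGCACCAgccaggcauugcucagc
hsa-miR-593-3p: uGUCUCUGcugggguuucu
hsa-miR-129-1-3p: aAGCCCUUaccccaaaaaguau

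The 250 bases before the start are shown for the targeted gene, for ARF5, the neighbour with the lowest unadjusted p, and for LEP, a tissue-restricted neighbour. They lie at chr7:127651944-127652193 (SND1), chr7:127588161-127588410 (ARF5) and chr7:128241028-128241277 (LEP) of GRCh38.p14, all on the plus strand, from RefSeq. Capitals mark CCAAT or its reverse complement ATTGG, the GC box GGGCGG or CCGCCC, and TATAA or TTATA.
SND1: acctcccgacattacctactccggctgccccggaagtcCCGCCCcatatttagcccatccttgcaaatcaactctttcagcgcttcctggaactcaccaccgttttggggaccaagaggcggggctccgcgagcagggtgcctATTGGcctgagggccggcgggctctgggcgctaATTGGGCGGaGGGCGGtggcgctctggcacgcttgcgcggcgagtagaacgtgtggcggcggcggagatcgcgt
ARF5: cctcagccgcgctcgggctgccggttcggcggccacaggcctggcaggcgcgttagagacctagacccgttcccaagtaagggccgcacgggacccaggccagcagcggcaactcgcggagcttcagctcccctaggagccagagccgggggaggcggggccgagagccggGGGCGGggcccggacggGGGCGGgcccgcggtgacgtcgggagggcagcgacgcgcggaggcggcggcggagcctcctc
LEP: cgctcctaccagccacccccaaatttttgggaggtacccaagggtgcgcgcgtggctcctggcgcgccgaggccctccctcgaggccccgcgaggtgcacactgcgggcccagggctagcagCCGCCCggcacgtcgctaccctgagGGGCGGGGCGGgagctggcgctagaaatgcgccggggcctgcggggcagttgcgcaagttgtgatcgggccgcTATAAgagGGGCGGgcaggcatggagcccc
The SND1 stretch holds 2 copies of the CCAAT motif, both as ATTGG, and 3 GC boxes, 1 of which overlaps an ATTGG. It has no TATAA. ARF5 has 2 GC boxes and neither of the other motifs. LEP has 4 GC boxes, 2 of which overlap, and 1 TATAA. Of 35116 RefSeq promoter windows of this length, 32.0% hold the CCAAT motif, 42.6% a GC box and 18.9% a TATAA motif. The windows of SND1 and LEP have 25 CpG dinucleotides each and that of ARF5 33, against a median of 11 over all windows. RefSeq windows were matched for 9 of the 10 genes. Among the others, LRRC4 has 38 CpG and FSCN3 has 5. The 2 PAX4 windows have 1 and 0. These letters describe the windows and show no binding.

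SND1 itself was strongly reduced. Its row, which the platform annotates with SND1 and the intronic transcript SND1-IT1, had log2 signals of 5.82, 5.69 and 5.88 on the shSND1 arrays, against 7.44, 7.25 and 7.16 on the vector arrays. The groups did not overlap, and the gap between the highest shSND1 and the lowest vector array was 1.28 on the log2 scale. Set against the vector mean, the shSND1 arrays retained 36.2%, 33.1% and 37.8% of the signal. The 3 shares lay within a narrow range.

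The means were 5.80 ± 0.10 in shSND1 cells and 7.28 ± 0.14 in vector cells (SD, n = 3 each). The log2 change of -1.49 (SE 0.09, 95% interval -1.71 to -1.27) gave a limma adjusted p of 0.0166 over 67528 transcript clusters (1 cluster stands for 1 transcribed locus). It was the largest fall of all clusters, and 0.0118% of clusters were called. An exact permutation test (two-sided) gave p = 0.1, which 3 arrays against 3 cannot undercut. A signal remained: on each array SND1 stayed at or above the 67.8th percentile of named genes. Array signals are compressed, so the retained share is that of the signal and not of the RNA molecules.

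The SND1 call over all clusters depended on single arrays. Without vector replicate 1 the limma adjusted p was 0.0773, and without vector replicate 2 it was 0.119. Leaving out shSND1 replicate 1, 2 or 3 gave 0.249, 0.121 and 0.168. Only without vector replicate 3 did it stay below the threshold (0.0411). The log2 change lay between -1.55 and -1.41 in these 6 fits. When the fit was confined to the 22466 named genes, which leaves out clusters with no symbol or several, the adjusted p was 0.00175. In that fit it remained below the threshold whichever array was left out, between 0.00347 and 0.0412.

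Whole arrays were not cleanly parted by group, but SND1 was. Vector replicate 3 and shSND1 replicate 1 differed by an SD of 0.14 over the named genes, less than any other pair of arrays (0.147 to 0.24). The same pair differed by 1.34 in SND1. Arrays of 1 group differed in SND1 by at most 0.27.

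**Figure D1:**
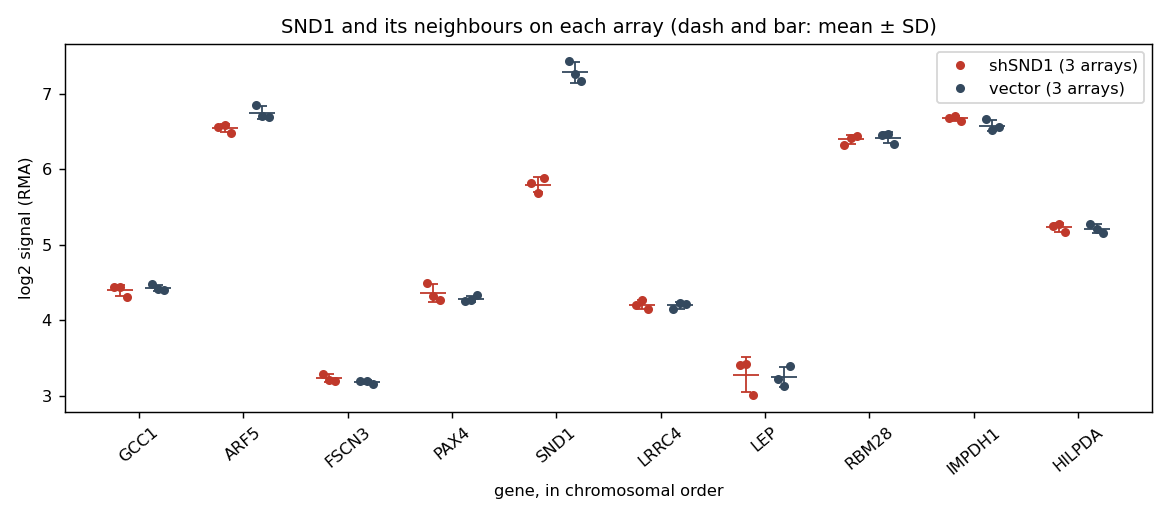
Log2 signal (RMA, vertical axis) of SND1 and its 9 neighbours in chromosomal order, with 3 shSND1 arrays (left of each pair) and 3 vector arrays as points and the mean ± SD as dash and bar. SND1 is near 5.80 in shSND1 cells and 7.28 in vector cells, and ARF5 is the 1 neighbour whose groups do not overlap.

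None of the 9 neighbours passed the threshold of 0.05, whether p-values were adjusted over all clusters (0.0118% called) or over named genes (0.178% called, 40 genes). The count of 40 rested on single arrays: it was 3, 2 and 37 without vector replicate 1, 2 or 3, and 2, 6 and 2 without shSND1 replicate 1, 2 or 3. By unadjusted p under 0.05 from limma, 1 of 9 was lower and 0 were higher, against 5.24% lower and 3.61% higher (8.84% in all) of the named genes. The median change of the 9 was 0.02, beside 0.01 for all named genes. Changes ran from -0.20 to 0.10. The lower 95% bound furthest from 0 among the neighbours was -0.38, well above the SND1 interval.

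LRRC4, a synaptic adhesion protein with leucine-rich repeats, is encoded inside the SND1 gene on the other strand. Its log2 signals were 4.20, 4.26 and 4.14 in shSND1 cells, against 4.14, 4.23 and 4.21 in vector cells. The groups overlapped throughout. Its change was 0.01 (SE 0.07, limma adjusted p = 0.984) and turned negative on centring the arrays, on renewed quantile normalization and with array weights. The 95% interval spans 90.1% to 112% of the vector signal, so a fall of signal as deep as that of SND1 lies outside it. The row lay at percentiles 37.4 to 39.7 of named genes. Without detection calls it may be background, so the interval does not bound a loss of transcript.

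The microRNA gene inside SND1 was noisier. MIR593 had log2 signals of 5.62, 5.40 and 5.27 in shSND1 cells, against 5.07, 5.31 and 5.56 in vector cells. The groups overlapped, with a change of 0.12 (SE 0.14, limma adjusted p = 0.826). MIR129-1, whose microRNA family is expressed in brain, had 2.96, 2.75 and 2.99 in shSND1 cells, against 2.96, 2.93 and 3.26 in vector cells. That change was -0.15 (SE 0.11, limma adjusted p = 0.717), also with overlapping groups. These rows stand for the loci, and the mature microRNAs printed above were not measured separately.

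The 2 nearby genes of vesicle traffic differed in their values. ARF5, a small GTPase of the ADP-ribosylation factor family that recruits coats to Golgi membranes, had log2 signals of 6.56, 6.59 and 6.48 in shSND1 cells, against 6.85, 6.70 and 6.69 in vector cells. All shSND1 arrays lay below all vector arrays, by a narrow margin. Among the 9 neighbours it was the 1 gene without overlap, which 17.9% of all named genes also showed, with 11.6% lower without overlap.

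The ARF5 change was -0.20 (SE 0.07, unadjusted p = 0.0261 from limma, exact permutation p = 0.1), or 86.8% of the vector signal (95% interval 77.0% to 97.8%). It did not pass after adjustment over all clusters (limma adjusted p = 0.48) or over named genes (0.26). A change of at least this size was present in 9.61% of named genes. Leaving out each array in turn gave -0.23 to -0.15. GCC1, a golgin-type coiled-coil protein of the trans-Golgi network, had 4.44, 4.43 and 4.31 in shSND1 cells, against 4.47, 4.42 and 4.40 in vector cells. Its groups overlapped, and its change was -0.03 (SE 0.07, limma adjusted p = 0.903).

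Of the 3 neighbours with tissue-restricted roles, none separated the groups. PAX4, a paired-box transcription factor of pancreatic islet development and the nearest measured gene before SND1, had 4.49, 4.32 and 4.27 in shSND1 cells, against 4.25, 4.26 and 4.33 in vector cells. Its change of 0.08 (SE 0.08, limma adjusted p = 0.791) came mainly from shSND1 replicate 1, and without that array it was 0.01. FSCN3, a testis fascin related to actin-bundling proteins, had 3.29, 3.20 and 3.20 in shSND1 cells, against 3.20, 3.19 and 3.15 in vector cells. It changed by 0.05 (SE 0.06, limma adjusted p = 0.836), and it turned slightly negative on centring or renewed quantile normalization.

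LEP encodes leptin, the adipocyte hormone of energy balance. It had 3.41, 3.42 and 3.01 in shSND1 cells, against 3.23, 3.13 and 3.39 in vector cells. It was the most variable neighbour, with SDs of 0.23 and 0.13, and its groups overlapped. Its change was 0.03 (SE 0.13, limma adjusted p = 0.961) and turned negative on centring or renewed quantile normalization. The 95% interval, 82.9% to 125% of the vector signal, is the widest among the neighbours. LEP and FSCN3 lay between the 23.3th and 27.5th percentiles of named genes on the 6 arrays, where signals are compressed and changes understated.

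RBM28 and IMPDH1 serve ribosome and nucleotide supply. RBM28, a nucleolar RNA-binding protein of ribosome assembly, had 6.32, 6.42 and 6.44 in shSND1 cells, against 6.46, 6.47 and 6.34 in vector cells. The groups overlapped, with a change of -0.02 (SE 0.07, limma adjusted p = 0.938), turning positive on renewed quantile normalization. IMPDH1, a rate-limiting dehydrogenase of guanine nucleotide synthesis, had 6.68, 6.70 and 6.64 in shSND1 cells, against 6.66, 6.52 and 6.56 in vector cells. The groups overlapped through vector replicate 1 alone. Its change of 0.10 (SE 0.07, limma adjusted p = 0.708) was the highest among the neighbours and did not pass.

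HILPDA, a hypoxia-induced lipid droplet protein that inhibits the triglyceride lipase encoded by PNPLA2, had 5.24, 5.28 and 5.17 in shSND1 cells, against 5.27, 5.21 and 5.15 in vector cells. The groups overlapped, with a change of 0.02 (SE 0.07, limma adjusted p = 0.956) that turned negative on centring or renewed quantile normalization. Its 95% interval is 90.5% to 113% of the vector signal.

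**Figure D2:**
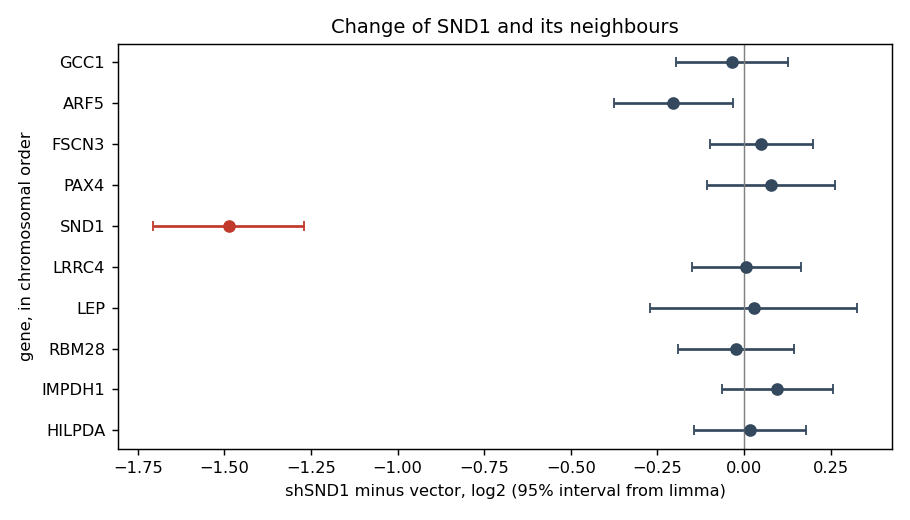
Change of each gene as shSND1 minus vector on the log2 scale (horizontal axis) with limma's 95% interval, genes in chromosomal order from top to bottom. SND1 stands at -1.49, the ARF5 interval runs from -0.38 to -0.03, and the intervals of the other 8 neighbours include 0.

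The neighbourhood was then widened to the 25 nearest measured genes on each side in RefSeq order, 50 genes in all, 9 of them the neighbours above. None of the 50 passed over all clusters, and 1 was lower when adjusted over named genes (0.147% of which were called lower). By unadjusted p under 0.05, 3 were lower and 1 was higher, which makes 8% of the 50 beside 8.84% of all named genes. Their median change was -0.01. The median size of a change, sign ignored, was 0.03 for the 9 neighbours, 0.06 for the 50 genes, 0.06 for 1033 other genes of chromosome 7 and 0.07 for all named genes. The groups did not overlap for 6 of the 50 (12%), beside 17.9% of all named genes.

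The 1 gene that stood apart in this stretch was CALU, 17 places beyond SND1, which encodes the calcium-binding protein calumenin of the endoplasmic reticulum. Its log2 signals were 7.35, 7.56 and 7.41 in shSND1 cells, against 8.26, 8.23 and 8.17 in vector cells. All shSND1 arrays were well below all vector arrays. The change of -0.78 (SE 0.08) had a limma adjusted p of 0.0783 over all clusters and 0.0138 over named genes. Over named genes, leaving out vector replicate 1, 2 or 3 gave 0.0981, 0.122 and 0.04. Leaving out shSND1 replicate 1, 2 or 3 gave 0.0842, 0.0351 and 0.126.

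The genes between SND1 and CALU had changes of -0.15 to 0.31. The measured neighbours of CALU, GARIN1B and OPN1SW, had changes of 0.14 (SE 0.09) and 0.04 (SE 0.09). WASL, which encodes an activator of actin branching, had the third lowest change of the stretch, -0.19 (SE 0.08, limma adjusted p = 0.529). Among the higher values, RNA5SP242, a pseudogene of 5S ribosomal RNA, had 9.02, 8.94 and 9.08 in shSND1 cells, against 8.70, 8.68 and 8.75 in vector cells. It changed by 0.31 (SE 0.07), with limma adjusted p-values of 0.324 over all clusters and 0.103 over named genes, and near-identical 5S copies make its row uncertain. The dim rows of RNU7-54P and HYAL6P had changes of 0.27 (SE 0.20) and 0.22 (SE 0.12), which became 0 once values under the 30th percentile were raised to it.

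**Figure D3:**
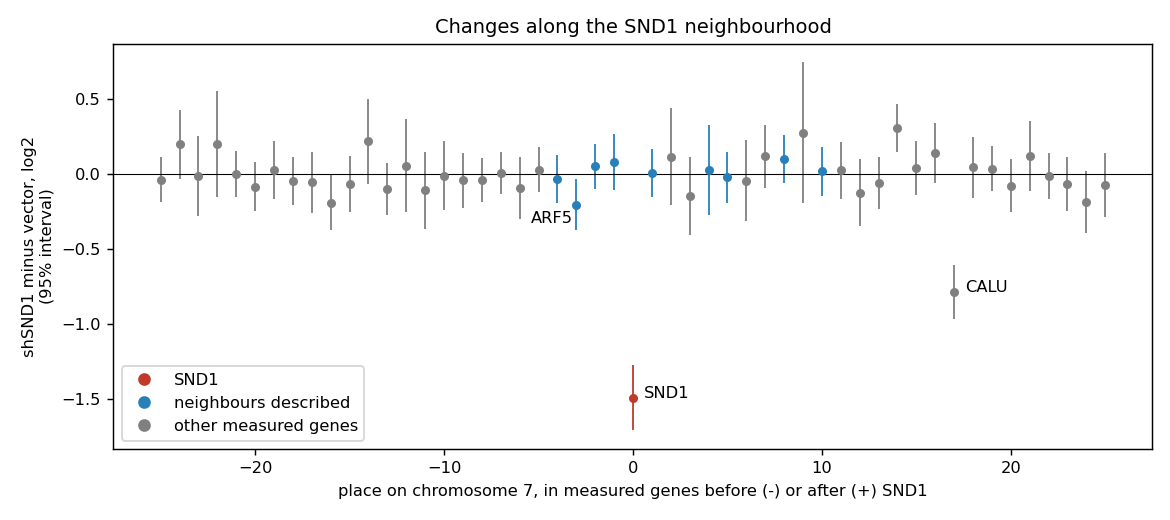
Change as shSND1 minus vector on the log2 scale with limma's 95% interval (vertical axis) for SND1 and the 25 nearest measured genes on each side, by place along chromosome 7. SND1 at -1.49 and CALU at -0.78 lie apart from the other genes, whose changes run from -0.20 to 0.31.

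Over chromosome 7 as a whole, 1033 genes other than SND1 had a median change of 0.00, beside 0.01 for the 21432 named genes of other chromosomes. None of the 1033 passed over all clusters. Adjusted over named genes 3 were lower and 0 higher, where 0.147% of all named genes were called lower: CALU, the carboxypeptidase gene CPA4 (-0.78, limma adjusted p = 0.0378) and FSCN1 (-0.55, 0.0309). For CPA4, leaving out vector replicate 1, 2 or 3 gave 0.108, 0.212 and 0.039, and leaving out shSND1 replicate 1, 2 or 3 gave 0.18, 0.147 and 0.171. By unadjusted p under 0.05, 44 had lower and 34 higher signals, 7.55% of these genes, against 8.9% of the named genes of other chromosomes. CPA4 lies beyond CALU on the same side of SND1, outside the stretch of nearest genes above. The next measured genes past that stretch, TSPAN33, SMO, AHCYL2 and RNU7-16P, had changes of -0.28, 0.05, -0.28 and 0.32. None of them passed over named genes (limma adjusted p of 0.209, 0.834, 0.207 and 0.609).

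FSCN1, the actin-bundling fascin of cell protrusions, is a paralogue of the neighbour FSCN3. It had 7.85, 7.90 and 7.87 in shSND1 cells, against 8.50, 8.41 and 8.36 in vector cells. The groups were far apart, at -0.55 (SE 0.07, limma adjusted p = 0.135 over all clusters). The value over named genes, 0.0309, was between 0.111 and 0.203 without any one array other than vector replicate 3, and was 0.0444 without that one. Of 14 measured paralogues and partners of the 10 genes, of 16 listed, FSCN1 was the 1 member past the threshold over named genes. Of all named genes, 0.147% were called lower. By unadjusted p under 0.05 from limma, 2 of the 14 were lower (14.3%, against 5.24% of all named genes) and 0 were higher.

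No other listed paralogue or partner passed. The ADP-ribosylation factor genes ARF3, ARF4 and ARF6 had changes of -0.05, 0.00 and -0.03 (SE 0.07, 0.08 and 0.06), beside the -0.20 of ARF5. IMPDH2, the second dehydrogenase of guanine nucleotide synthesis, had -0.10 (SE 0.08). GCC2, another golgin gene, had 0.13 (SE 0.09). PNPLA2, the lipase that HILPDA inhibits, averaged 7.01 ± 0.07 in shSND1 cells and 7.30 ± 0.07 in vector cells (SD, n = 3 each), a change of -0.29 (SE 0.07, limma adjusted p = 0.349 over all clusters). The list's median change was -0.02.

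Genes whose proteins bind SND1 or act with it were then examined. None of 19 measured, of 21 listed, passed over all clusters or over named genes, and by unadjusted p under 0.05 there were 3 lower (15.8% of the list, against 5.24% of all named genes) and 0 higher. The groups did not overlap for 6 of 19 (31.6%, against 17.9% of all named genes), 5 of them lower in shSND1 cells. The share without overlap was also 32.1% in the other Tudor domain genes below, but there 4 of 9 were lower. By unadjusted p under 0.05 those genes reached 3.57%, against 15.8% here. The list was also bright: 12 of the 19 lay above percentile 75 on all 6 arrays, against 5132 of 22466 named genes. Whether brightness bears on these counts was not tested. The 3 lower genes were PRPF8, the core spliceosome scaffold (-0.28, SE 0.08), STAT6, the interleukin-4 transcription factor for which SND1 is a coactivator (-0.23, SE 0.07), and UPF1, the helicase of nonsense-mediated decay (-0.22, SE 0.08). MTDH, the oncoprotein that anchors SND1, had a change of -0.06 (SE 0.07), and the stress granule gene G3BP1 had 0.04 (SE 0.07). The list's median change was -0.04.

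Other genes with a Tudor domain showed no common direction. Of 28 measured, of 31 listed, 14 had a negative and 14 a positive change, with a median of 0.01. None passed over all clusters or over named genes. By unadjusted p under 0.05 from limma, 1 was higher (3.57% of the list, against 3.61% of all named genes) and 0 were lower. The groups did not overlap for 9 of the 28 (32.1%, against 17.9% of all named genes), 5 higher and 4 lower in shSND1 cells. MTF2, a Tudor protein of Polycomb repressive complexes, had the largest change: 5.42, 5.60 and 5.62 in shSND1 cells, against 5.19, 5.20 and 5.08 in vector cells. The groups did not overlap, with a change of 0.39 (SE 0.08, limma adjusted p = 0.309 over all clusters and 0.102 over named genes). SGF29, which reads methylated histone tails, and UHRF1, which maintains DNA methylation, had changes of -0.16 (SE 0.07) and 0.15 (SE 0.07).

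In the pathways of 3 neighbours, no gene passed over all clusters or over named genes. Of 17 measured targets of the hypoxia factor HIF, the setting of HILPDA, 1 was lower by unadjusted p under 0.05 (5.88% of the list, against 5.24% of all named genes): SLC2A1, the glucose transporter gene (-0.29, SE 0.09). NDRG1 and ANGPTL4 had -0.30 (SE 0.13) and -0.24 (SE 0.14). Of 13 measured guanine nucleotide synthesis genes, the setting of IMPDH1, none had an unadjusted limma p under 0.05 in the fit over all clusters, and HPRT1, PPAT and GMPR had 0.19 (SE 0.08), 0.18 (SE 0.09) and -0.14 (SE 0.09). Of 20 measured nucleolar ribosome assembly genes, the setting of RBM28, none had one either, and NOL6, NOP58 and POLR1B had -0.13, 0.14 and 0.13. The median changes of these lists were 0.00, 0.02 and -0.01.

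**Figure D4:**
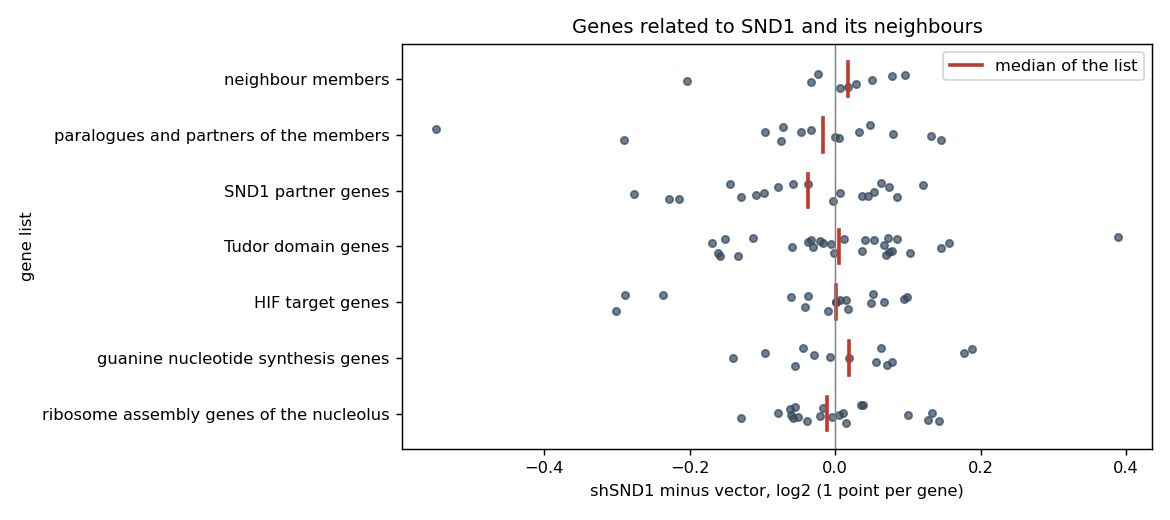
Change of each measured gene as shSND1 minus vector on the log2 scale (horizontal axis) in 7 gene lists, with the median of each list as a red line. Medians lie between -0.04 and 0.02, and FSCN1 at -0.55 and MTF2 at 0.39 are the outermost points.

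The genes whose log2 values most resembled those of SND1 over the 6 arrays, by Pearson's r among 11232 named genes brighter than the median, were TGFBR2 (a transforming growth factor beta receptor), PLEKHG3, CDH1 (E-cadherin), GSTZ1 (a glutathione transferase), MMP1 (a collagenase) and TNFSF15 (a cytokine). Their r ran from 0.994 to 0.999. The 3 most opposed were UBTD2, RDH14 and SNORA72, with r of -0.991 to -0.987. These r describe 6 arrays in 2 groups, and 295 genes reached 0.95. Likeness of pattern was not likeness of size: PLEKHG3 and GSTZ1 had changes of -0.17 and -0.18, whereas MMP1 had -1.29. Among the neighbours, ARF5 had the highest r with SND1 (0.884) and IMPDH1 the lowest (-0.684), and LRRC4 had -0.185.

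Array medians over all clusters were 3.65 to 3.73 for shSND1 and 3.58 to 3.69 for vector arrays. Of 11 measured hepatocyte markers (13 listed), 7 were below percentile 25 of the named genes on all 6 arrays, ALB and AFP among them, while APOA2 lay at 95.6 to 96.4, SERPINA1 at 59.9 to 71.7 and APOA1 at 55.7 to 58.6. Probes differ in brightness, so these percentiles describe signals and not abundance. The labels name the cells HepG2, a liver tumour line, yet ALB lay at only 7.5 to 8.6 and AFP at 3.1 to 5.2. Whether the cells are what the label says was not tested. By unadjusted p under 0.05, 1 of the 11 was lower (9.09%, against 5.24% of all named genes) and 0 were higher. The lower one, SERPINA1 (-0.43, SE 0.08), did not pass (limma adjusted p = 0.258 over all clusters, 0.0824 over named genes). The 8 epithelial markers had mean signals of 8.44 to 8.48 on shSND1 arrays, against 8.69 to 8.79 on vector arrays. Of these 8, 6 were lower by unadjusted p under 0.05, against 5.24% of all named genes. One of them, CDH1, passed over all clusters (-0.95, limma adjusted p = 0.0316), but not without any one array (0.0907 to 0.304). The part of these markers in the changes reported here was not tested. The 8 leukocyte and endothelial markers had 2.94 to 3.06 against 2.92 to 3.01, and the 5 fibroblast markers 3.40 to 3.46 against 3.39 to 3.49, with 0 of either list at that level.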

How the data were processed

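RNA of 6 samples was read on Affymetrix whole-transcript arrays, 3 per group, and titles gave groups and replicate numbers. The deposited values are log2 signals that the authors summarised with RMA (robust multi-array average: background correction, quantile normalization, probe summary), per the submitters' processing notes. Its version is not given in those notes as used here. No detection calls or scanner files were used, and the number of arrays limits the precision.

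Of 70523 features, 67528 transcript clusters were kept. GEO's platform annotation gave 1 symbol for 23781, which made 22466 named genes with the SND1 row. Of several rows of a gene, that with the highest mean was used. Gene order and sequences came from RefSeq (GRCh38.p14), which may not be the build of the array, and array rows are given no coordinates.

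shSND1 minus vector was fitted over all clusters with lmFit and eBayes (limma 3.58.1, R 4.3.3), with Benjamini-Hochberg adjustment and a threshold of 0.05. SEs and intervals are limma's. A fit to named genes alone was the main alternative. The others were a replicate block, a filter on dim features, new quantile normalization, centring, a floor, a variance trend, array weights, the mean of a gene's rows and leaving out each array. Leaving out arrays within the fit to named genes, and the block in it, were added after seeing the data. The fit was also run on simulated data whose noise was drawn from limma's own model. That run checks the code and not the spread among these arrays.

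The 10 genes, the lists and the tests were chosen with earlier results of these data known. The rule for named genes took all 10, the called genes and the 3 largest changes each way among the 50 nearest genes. It also took up to 4 called members of each list, or the 3 with the lowest p, and the 6 genes most like and 3 most unlike SND1. Other genes were named for their role or place after their values were seen. Figures were drawn with matplotlib 3.10.9.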

Additional observations from a re-analysis of the deposited data

How the results depend on the processing

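The fall of SND1 kept its direction in every alternative run, with changes of -1.55 to -1.41. Over all clusters its call was lost with the replicate number as a block (-1.49, limma adjusted p = 0.142) and with a floor at the 30th percentile (-1.49, 0.178). It was also lost without any one array other than vector replicate 3 (range -1.55 to -1.41). In the fit to named genes SND1 held with the replicate block (adjusted p = 0.0155), but that fit made 2 calls against 40, and CALU (0.116), CPA4 (0.222) and FSCN1 (0.229) did not pass. Replicate numbers did not pair the arrays: deviations from the group means of same-numbered arrays correlated at -0.364, 0.107 and -0.487. With the block 0 clusters passed, against 8 without it.

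Named genes alone gave 40 calls of 22466, and 2 to 37 when 1 array was left out. In that fit 1 of the 50 nearest genes, 3 chromosome 7 genes and 1 of the paralogues and partners passed, against 0 of each over all clusters. Without the dimmest 40% of features the counts were 1 for the 50 nearest and 1 for chromosome 7. They were 1, 2 and 1 with a variance trend, and 1, 3 and 1 with array weights. The count of 9 neighbours past the threshold was 0 in every alternative, as were those of the other 5 lists.

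Signs of uncalled neighbours changed with scaling. Renewed quantile normalization gave -0.0026 for FSCN3, -0.0119 for HILPDA, -0.0244 for LEP, -0.0469 for LRRC4 and 0.0054 for RBM28. Median centring gave -0.0064 for FSCN3, -0.0393 for HILPDA, -0.0285 for LEP and -0.05 for LRRC4, and array weights gave -0.0045 for LRRC4. Leaving out arrays moved LRRC4 between -0.0233 and 0.0364, LEP between -0.0424 and 0.163, HILPDA between -0.014 and 0.0482, RBM28 between -0.0654 and 0.0121 and GCC1 between -0.0573 and 0.0092. Median centring shifts the change of every gene by the same amount, that of SND1 from -1.49 to -1.54. The cause of the other moves was not tested. Dim signals limit what LEP and FSCN3 can show.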
